A study of Mus musculus with 7 samples.

Results

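The axon injury pathway of sensory neurons takes in the kinase DLK, its JNK cascade and the NAD-consuming enzyme SARM1. It was followed here through 10 genes, Map3k12 (DLK), Map3k13 (LZK), Map2k4, Map2k7, Mapk8 (JNK1), Mapk10 (JNK3), Mapk8ip3 (JIP3), Mycbp2, Sarm1 and Nmnat2, found by symbol among 54309 genes of an RNA sequencing table. All 10 were present on 1 row each. The samples were lumbar dorsal root ganglia, which house the cell bodies of sensory neurons, from C57bl/6 mice labelled male and 6 to 8 weeks old. The injury to the sciatic nerve was made at ZT20 in 4 samples and at ZT8 in 3 samples, where ZT (Zeitgeber time) counts hours from lights on. Ganglia were collected 72 h later and so at the ZT of the injury, and the effect of the time of injury cannot be told apart from that of the time of collection. No uninjured samples were analysed here. In both groups the ganglia were dissociated with Dispase II, Collagenase and Papain and passed over a 15% BSA gradient that enriches neurons, and total RNA went into a low-input library kit.

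DLK and its close relative LZK are mitogen-activated protein kinase kinase kinases that sense axon damage. They phosphorylate MKK4 and MKK7, which activate the JNK kinases, and JNK bound to scaffold proteins is carried along the axon to the cell body, where it alters transcription. In sensory neurons this signalling is known for its part in the regenerative response, while SARM1, held in check by the NAD-synthesising enzyme NMNAT2, drives degeneration of the cut axon. The ubiquitin ligase encoded by Mycbp2 is known to control the abundance of both DLK and NMNAT2.

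Values are TPM, a length-normalised measure of transcript abundance in which reads are corrected for transcript length and scaled to the same sum in every sample, so levels can be set against each other between genes. Differences are ZT20 minus ZT8 of log2(TPM + 1), tested with limma and Benjamini-Hochberg adjustment over the 14800 genes whose mean reached 1 TPM. This scale understates differences of genes with low values. Nothing in the labels says that replicates came from separate animals, so p-values measure the spread between these samples. Read depth is unknown, because TPM keeps no record of it.

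Some libraries stood apart. All samples are labelled male, yet the Y-linked gene Ddx3y was at 0 TPM in ZT20 replicates 3 and 4, against 24.2 and 11.7 TPM in ZT20 replicates 1 and 2 and 15.3 to 20.8 TPM at ZT8. Kdm5d, also Y-linked, was at 0.0162 and 0.00868 TPM in those libraries and at 0.921 to 5.63 TPM in the others. Xist, the RNA of the silenced X chromosome in female cells, reached 1.08, 2.21 and 2.31 TPM in replicates 2, 3 and 4 of ZT20 and stayed at 0.00467 TPM or below in the other samples. ZT8 replicate 2 had 18297 genes above 0 TPM, against 22541 to 25238 in the other samples. Library identifiers were numbers at ZT20 and letters at ZT8, so a batch that they may stand for cannot be told apart from the injury time. The summed TPM of 11 neuronal markers was 17340 to 22060 at ZT20 and 13830 to 20960 at ZT8. The summed TPM of 6 satellite glia markers was 7459 to 9117 at ZT20 and 12750 to 15450 at ZT8, a range that did not overlap, and 3 of the 6 were lower at ZT20 by limma. The summed TPM of 5 plasma cell markers also separated the groups, at 108 to 296 at ZT20 and 364 to 708 at ZT8. Only 1 of 4 tested was lower, and 3 of the 5 (Mzb1, Derl3 and Tnfrsf17) were at 0 in some sample. Of the neuronal markers 2 of 11 were higher, and of the macrophage markers 1 of 8 was lower, with overlapping sums for both lists. Beside these marker counts, 12.8% of all genes tested were higher and 3.61% lower at ZT20 by limma. No listed marker of any cell type was at 0 in every sample. In such mixed samples, fewer cells of a type and less RNA per cell cannot be told apart.

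Of the 10 genes, 7 were higher at ZT20 by limma: Map3k12, Map3k13, Mapk10, Mapk8ip3, Mycbp2, Sarm1 and Nmnat2. Map3k13 reached the filter of 1 TPM only through ZT20, since its ZT8 mean was 0.880 TPM, and with a filter at 5 TPM it was not tested and the count was 6. Of all genes tested, 16.4% passed the same threshold in either direction and 12.8% passed it as higher at ZT20. The log2 differences of these 7 ran from 0.64 for Nmnat2 to 1.32 for Mycbp2. The remaining 3, Map2k4, Map2k7 and Mapk8, did not pass, and 0 of the 10 were lower. The same 7 genes had every ZT20 value above every ZT8 value, a pattern seen in 24.5% of all genes tested, and 33.2% of all genes did not overlap in either direction. The median difference of the 10 was 0.79, beside 0.23 for all genes tested, so the whole table was itself shifted towards ZT20. This lead count depended on how the values were treated and on which libraries entered. It was 3 (Mapk10, Mapk8ip3 and Mycbp2) after median-ratio scaling, which brought the median of all genes to 0.019. After the values had been adjusted within each sample for length and GC content of the transcripts it was 1, and that 1 was Mapk8, which was lower at ZT20. The 10 genes have longest annotated transcripts of 3525 to 15233 nt, with a median of 5471 nt against 3108 nt for tested genes. Leaving out 1 library gave 2 (without ZT20 replicate 1), 6 (without ZT20 replicate 2), 1 (without ZT20 replicate 3), 1 (without ZT20 replicate 4), 4 (without ZT8 replicate 1), 6 (without ZT8 replicate 2) and 2 (without ZT8 replicate 3). Without ZT20 replicates 3 and 4, the libraries with Y-linked genes at or near 0, 0 of the 10 passed by limma, 4 had an unadjusted p under 0.05, and 0 of all genes passed. The differences themselves stayed positive for all 7 genes in that fit, from 0.48 for Nmnat2 to 1.41 for Mycbp2, with a median of 0.71 over the 10. Mycbp2 was the only member that passed without each of the 7 libraries in turn.

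**Figure D1:**
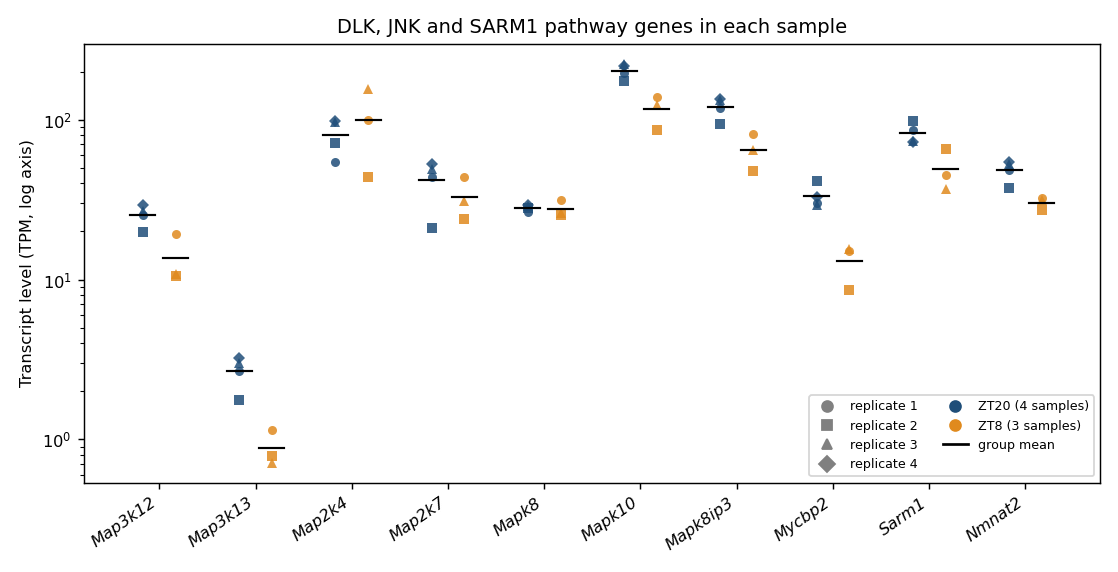
Level of each pathway gene in TPM on a log axis, with 1 point per sample (blue, 4 ZT20 samples; orange, 3 ZT8 samples), symbols for the replicate number and black lines at group means. All ZT20 points lie above all ZT8 points for 7 genes, while the groups overlap for Map2k4, Map2k7 and Mapk8.

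At the top of the cascade stand the injury-sensing kinases, of which DLK had a mean well above the filter in both groups and LZK at ZT20 alone. Map3k12 (ENSMUSG00000023050), which encodes DLK, measured 25.3, 19.7, 26.9 and 29.2 TPM in replicates 1 to 4 of ZT20 and 19.3, 10.6 and 10.8 TPM in replicates 1 to 3 of ZT8, the order kept in the sentences that follow. The groups did not overlap, but ZT20 replicate 2 lay only just above ZT8 replicate 1, the highest of the ZT8 samples. The means were 25.3 ± 4.03 TPM (SD, n = 4) and 13.6 ± 4.95 TPM (SD, n = 3). The log2 difference was 0.89 (SE 0.24, 95% interval 0.34 to 1.43, limma adjusted p = 0.0381), or 1.85-fold on the log2(TPM + 1) scale. Pcbp2 overlaps Map3k12 on the other strand, and how the authors' counting treated strand is not given in the sources used here.

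Map3k13 (ENSMUSG00000033618), which encodes LZK and can act beside DLK or in its place, was the least abundant of the 10 genes in both groups. It was at 2.68, 1.76, 3.01 and 3.24 TPM at ZT20 and at 1.14, 0.783 and 0.715 TPM at ZT8. ZT20 replicate 2 was again the lowest of its group, and still above all ZT8 samples. Its mean was 2.67 ± 0.650 TPM (SD, n = 4) against 0.880 ± 0.229 TPM (SD, n = 3), a ratio of means of 3.03. On the log2(TPM + 1) scale, which compresses values this low, the difference was 0.95 (SE 0.26, limma adjusted p = 0.0394). The gene entered the test through its ZT20 values, so its call is not independent of the filter, and with no filter the adjusted p was 0.117 (limma). With 1 library left out, the difference for Map3k12 was 0.75 to 1.15 with adjusted p from 0.0174 to 0.111, and the gene passed only without ZT20 replicate 2 or ZT8 replicate 1. For Map3k13 it was 0.88 to 1.08 with adjusted p from 0.0400 to 0.126, and the gene passed only without ZT20 replicate 2 or ZT8 replicate 2. Annotated genes also overlap Map3k13 on both strands.

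RefSeq promoter windows, 250 bases before to 50 after a transcription start (build GRCm38.p6), were available for 9 of the 10 genes, 14 windows in all. They were searched on both strands for clock and injury-response motifs: the E-box CACGTG read by CLOCK and BMAL1, the D-box TTATGNAA, the RORE core TAGGTCA, the AP-1 site TGANTCA bound by JUN and FOS proteins, and the CRE TGACGTCA. Among the 32851 mouse windows, 7.15% hold the E-box, 3.38% the D-box, 2.61% the RORE core, 7.81% the AP-1 site and 1.79% the CRE. For DLK, 1 of 2 windows held an E-box 136 bases before the start, and another lay 10 bases past it. The stretch is shown because this was the only window of these genes with an E-box, with the motif in capitals (chr15:102510804-102510863, minus strand, 5′ to 3′ along the gene):
Map3k12 E-box: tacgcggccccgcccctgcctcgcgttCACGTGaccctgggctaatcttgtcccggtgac

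Such a match states only that these letters are present in the window. The D-box was in 0 of the 14 windows, which says nothing about the factors that bind it.

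The next tier did not differ beyond its spread. Map2k4 (ENSMUSG00000033352) encodes MKK4, which phosphorylates JNK mainly on tyrosine, and had the largest standard error of the 10 genes. It was at 54.6, 71.8, 96.8 and 97.8 TPM at ZT20 and at 99.8, 43.6 and 156 TPM at ZT8. Both the lowest and the highest of the 7 values fell at ZT8, in replicates 2 and 3, so the ZT20 values lay inside the ZT8 range. The difference was −0.17 (SE 0.40, 95% interval −1.07 to 0.73, limma adjusted p = 0.785). Without ZT8 replicate 3 the sign turned, to 0.24.

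Map2k7 (ENSMUSG00000002948) encodes MKK7, which phosphorylates JNK mainly on threonine. Its values were 44.0, 21.02, 49.2 and 52.8 TPM at ZT20 and 44.0, 23.8 and 31.0 TPM at ZT8. The groups overlapped fully at the low end, because ZT20 replicate 2 was the lowest of all 7 samples while the other ZT20 samples matched or exceeded the highest ZT8 sample. The difference was 0.30 (SE 0.33, 95% interval −0.46 to 1.05, limma adjusted p = 0.552), and with 1 library left out it ran from 0.093 (without ZT8 replicate 2) to 0.59 (without ZT20 replicate 2). An AP-1 site lay 92 bases before the start in 1 of its 2 windows (chr8:4239986-4240046, plus strand), shown because AP-1 is the factor family that JNK acts on:
Map2k7 AP-1 site: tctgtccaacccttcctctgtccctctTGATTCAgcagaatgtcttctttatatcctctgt

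Of the JNK genes among the members, Mapk10 was higher at ZT20 and Mapk8 did not pass. Mapk8 (ENSMUSG00000021936) encodes the broadly expressed JNK1 and was nearly flat, at 26.6, 28.2, 28.8 and 29.1 TPM at ZT20 and 31.5, 25.3 and 26.1 TPM at ZT8. The ZT20 values fell within the ZT8 range. The difference was 0.032 (SE 0.14, 95% interval −0.28 to 0.35, limma adjusted p = 0.887). Its sign followed the scaling, at −0.21 after median-ratio scaling and −0.45 once length and GC content were corrected for, where the adjusted p was 0.0483 and the gene counted as lower.

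Mapk10 (ENSMUSG00000046709) encodes JNK3, the neuron-enriched JNK, and was the most abundant of the 10 genes in both groups. It was at 195, 175, 223 and 217 TPM at ZT20 and at 138, 86.6 and 123 TPM at ZT8. Every ZT20 sample was well above every ZT8 sample, and ZT8 replicate 2 was the lowest. The means were 203 ± 21.9 TPM (SD, n = 4) and 116 ± 26.5 TPM (SD, n = 3). The log2 difference was 0.82 (SE 0.17, 95% interval 0.42 to 1.22, limma adjusted p = 0.0182) and a fold of 1.77. It passed without 5 of the 7 libraries in turn, and without ZT20 replicate 3 or 4 it did not, with differences over these 7 fits from 0.63 to 0.96 and adjusted p from 0.0169 to 0.0631.

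The ratio of Mapk10 to Mapk8 within a sample does not depend on how samples are scaled to each other. It was 7.33, 6.22, 7.76 and 7.44 at ZT20 and 4.39, 3.42 and 4.71 at ZT8. Each ZT20 sample thus held more JNK3 message per JNK1 message than any ZT8 sample. The log2 difference of the ratio was 0.79, with an exact two-sided permutation p of 0.0286, the smallest that 35 splits of 4 and 3 samples can give, and 0.114 after adjustment over the 4 ratios examined. Over the alternatives it ran from 0.64 after the length and GC correction to 1.01 after quantile normalization. Leaving libraries out could not turn its sign, because the groups did not overlap. Without ZT20 replicates 3 and 4 it was 0.70, an exact permutation p of 0.10 being the smallest that is left with 2 against 3 samples.

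Of the TPM summed over the 3 JNK genes, JNK1 made up 8.69%, 9.35%, 7.82% and 7.95% at ZT20 and 13.7%, 13.3% and 13.2% at ZT8. JNK1 thus held a smaller share in each ZT20 sample, on a total of 301.5 to 368 TPM at ZT20 and 191 to 230.0 TPM at ZT8. The JNK3 share was 60.4 ± 2.45% (SD, n = 4) and 55.8 ± 9.09% (SD, n = 3) and overlapped, with the low ZT8 value of 45.4% in replicate 2. Mapk9, which encodes JNK2 and belongs to the wider list described further on, supplied the rest, with 31.1 ± 2.44% (SD, n = 4) and 30.8 ± 9.17% (SD, n = 3).

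Promoter windows of Mapk8 and Mapk10 are shown because no other window of these genes held a RORE core or a CRE. Whether these motifs bear on the levels was not tested. For Mapk8, 1 of 2 windows held a pair of RORE cores, here in the reverse orientation, 156 and 101 bases before the start (chr14:33411147-33411207 and chr14:33411092-33411152, minus strand). For Mapk10, 1 of 2 windows held a CRE 29 bases before the start (chr5:103211335-103211390, minus strand). Capitals mark the motif:
Mapk8 RORE core, distal: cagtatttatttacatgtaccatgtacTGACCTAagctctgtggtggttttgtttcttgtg
Mapk8 RORE core, proximal: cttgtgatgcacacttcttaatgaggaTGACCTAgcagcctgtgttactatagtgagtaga
Mapk10 CRE: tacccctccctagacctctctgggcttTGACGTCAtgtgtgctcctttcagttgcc

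**Figure D2:**
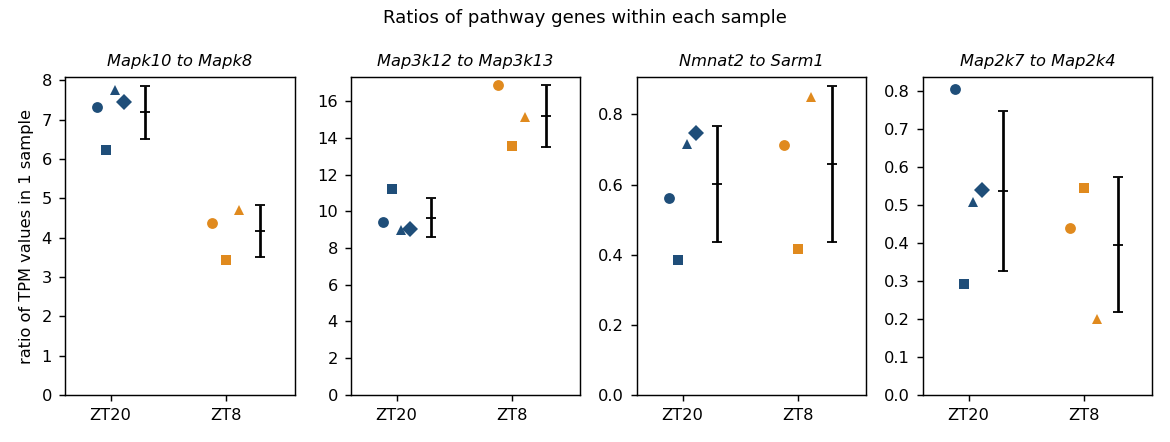
Ratio of the TPM values of a pair of pathway genes in each sample, on linear axes from 0, with 1 point per sample, symbols for the replicate number as in the plot of levels, and the group mean ± SD in black. Mapk10 to Mapk8 and Map3k12 to Map3k13 separate the groups in all 7 samples, the first higher and the second lower at ZT20, and the other pairs overlap.

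Mapk8ip3 (ENSMUSG00000024163) encodes JIP3, the scaffold that links DLK and JNK to motor proteins for transport in the axon. It was at 119, 93.8, 132 and 134 TPM at ZT20 and at 81.4, 48.0 and 64.7 TPM at ZT8. The groups did not overlap, and ZT20 replicate 2 came closest to the ZT8 samples. The means were 120 ± 18.5 TPM (SD, n = 4) and 64.7 ± 16.7 TPM (SD, n = 3). The difference was 0.89 (SE 0.20, limma adjusted p = 0.0218) and a fold of 1.86. It passed only without ZT20 replicate 2, ZT8 replicate 1 or ZT8 replicate 2 when 1 library was left out, with differences from 0.70 to 1.07 and adjusted p from 0.0198 to 0.0715 over the 7 fits. Mrps34 and Nme3 overlap it on the other strand and Eme2 on the same strand, so the assignment of its reads is uncertain.

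Mycbp2 (ENSMUSG00000033004), whose product is the large ubiquitin ligase PHR1 that limits DLK and NMNAT2, showed the largest difference of the 10 genes on the log2(TPM + 1) scale, while Map3k13 exceeded it in the ratio of means (3.03 against 2.56) and with a pseudocount of 0.1 (1.49 against 1.38). It was at 30.0, 41.3, 29.2 and 33.04 TPM at ZT20 and at 15.0, 8.63 and 15.6 TPM at ZT8. The lowest ZT20 sample was above the highest ZT8 sample by a wide margin, and here ZT20 replicate 2, the low sample for DLK, LZK and JIP3, was the highest. The means were 33.4 ± 5.51 TPM (SD, n = 4) and 13.1 ± 3.85 TPM (SD, n = 3). The difference was 1.32 (SE 0.23, 95% interval 0.80 to 1.84, limma adjusted p = 0.00997), a fold of 2.49, and over the fits without 1 library it was 1.07 to 1.46 with adjusted p of 0.00708 to 0.0383. After the length and GC correction it was 0.58 with an adjusted p of 0.156. At 15233 nt its longest transcript is the longest of the 10 genes, and no annotated gene overlaps it.

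The opposing pair of axon degeneration, Sarm1 and Nmnat2, was higher at ZT20 in both of its members. Sarm1 (ENSMUSG00000050132), which encodes the NADase that destroys the injured axon, was at 85.9, 97.6, 73.9 and 72.6 TPM at ZT20 and at 45.1, 65.4 and 37.1 TPM at ZT8. The groups did not overlap, and replicate 2 was the highest sample of each. The means were 82.5 ± 11.7 TPM (SD, n = 4) and 49.2 ± 14.6 TPM (SD, n = 3). The difference was 0.76 (SE 0.20, limma adjusted p = 0.0372) and a fold of 1.70. When 1 library was left out it passed only without ZT8 replicate 2, with differences from 0.58 to 0.98 and adjusted p from 0.00811 to 0.0928 over the 7 fits.

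Nmnat2 (ENSMUSG00000042751) encodes the short-lived axonal enzyme whose loss releases SARM1. It was at 48.3, 37.4, 52.8 and 54.2 TPM at ZT20 and at 32.2, 27.2 and 31.5 TPM at ZT8. All ZT8 samples lay close together and below the ZT20 samples. The means were 48.2 ± 7.59 TPM (SD, n = 4) and 30.3 ± 2.69 TPM (SD, n = 3). The difference was 0.64 (SE 0.16, limma adjusted p = 0.0321) and a fold of 1.56. It passed only without ZT20 replicate 2 or ZT8 replicate 2, with differences from 0.57 to 0.76 and adjusted p from 0.0218 to 0.104 over the 7 fits.

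The balance of protector to executioner message did not separate the groups. Nmnat2 to Sarm1 was 0.561, 0.384, 0.714 and 0.746 at ZT20 and 0.712, 0.416 and 0.850 at ZT8. The lowest ratio in each group was that of replicate 2. The log2 difference was −0.12 with an exact permutation p of 0.686 and an adjusted p of 0.857.

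Map3k12 to Map3k13, the ratio of DLK to LZK message, was 9.43, 11.2, 8.96 and 9.01 at ZT20 and 16.9, 13.5 and 15.1 at ZT8. All ZT20 ratios were below all ZT8 ratios. With no pseudocount the log2 difference was −0.65 (exact permutation p = 0.0286, 0.0571 after adjustment over the 4 ratios). With 1 TPM added to each value, as in the other tests, it was −0.066 with an exact permutation p of 0.857, since LZK was near 1 TPM. Map2k7 to Map2k4 was 0.807, 0.293, 0.509 and 0.539 at ZT20 and 0.441, 0.546 and 0.199 at ZT8, and the groups overlapped (log2 difference 0.47, exact permutation p = 0.429, adjusted p = 0.857). This difference was 0.038 without ZT8 replicate 3, 0.25 without ZT20 replicate 1 and 0.76 without ZT8 replicate 2.

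**Figure D3:**
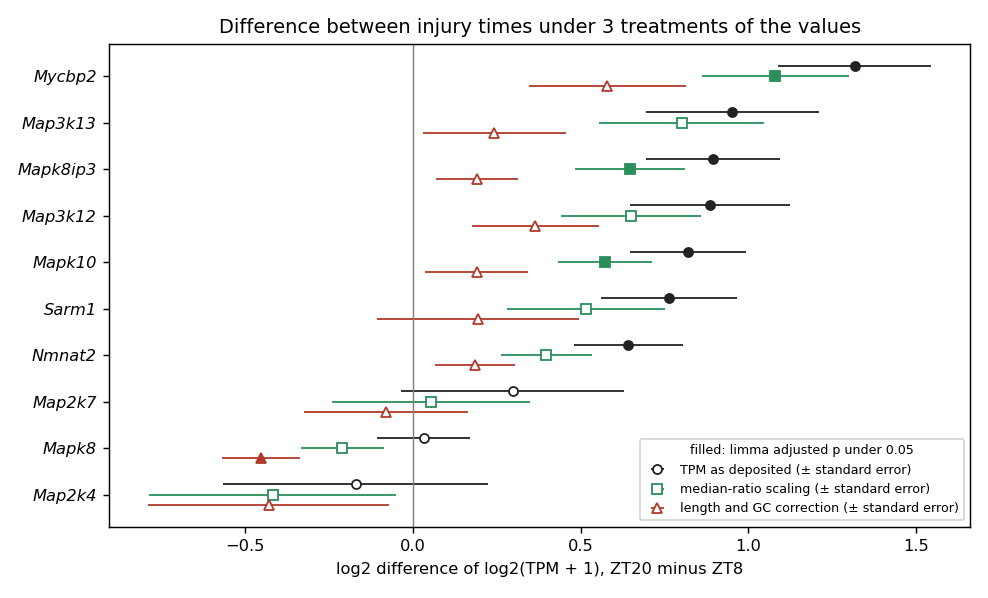
Difference of log2(TPM + 1), ZT20 minus ZT8, for each pathway gene with its standard error (horizontal bars) under deposited TPM, median-ratio scaling and a length and GC correction; filled symbols passed the limma threshold. Mycbp2 leads with 1.32, 1.08 and 0.58, and the 6 others called on deposited TPM drop to between 0.19 and 0.36 after the length and GC correction.

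By mean level at ZT20 the order was Mapk10, Mapk8ip3, Sarm1, Map2k4, Nmnat2, Map2k7, Mycbp2, Mapk8, Map3k12 and Map3k13. Neighbours whose sample ranges did not overlap were Mapk10 and Mapk8ip3, Map2k4 and Nmnat2, Mycbp2 and Mapk8, and Map3k12 and Map3k13. At ZT8 the order was Mapk10, Map2k4, Mapk8ip3, Sarm1, Map2k7, Nmnat2, Mapk8, Map3k12, Mycbp2 and Map3k13. There, only Mapk8 and Map3k12, and Mycbp2 and Map3k13, were separated from their neighbours. Mycbp2 thus stood above Mapk8 in every ZT20 sample and below it in every ZT8 sample. At ZT20 the ranges nearly met, with a lowest Mycbp2 value of 29.16 TPM and a highest Mapk8 value of 29.14 TPM. Within groups, a few libraries held most of the extreme values. ZT20 replicate 2 was the lowest of its group for 6 genes and the highest for Mycbp2 and Sarm1, ZT20 replicate 4 was the highest for 7, ZT8 replicate 1 the highest for 7, and ZT8 replicate 2 the lowest for 8 and the highest for Sarm1 alone.

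The other genes of the pathway were taken from a list of 67, of which 63 were tested. Map3k7, Nadsyn1 and Zdhhc5 (ZT8 means 0.918, 0.744 and 0.636 TPM) reached the filter of 1 TPM only through ZT20. They did not pass and are named after their values were seen. Of the 63 genes, 16 were higher and 1 was lower at ZT20 by limma, beside 12.8% and 3.61% of all genes tested. The other 46 did not pass, and the median difference of the list was 0.39 against 0.23. The split was 10 higher and 3 lower under median-ratio scaling, and 5 and 3 under the length and GC correction. The count of 17 was 9, 3 and 5 without ZT20 replicate 1, 3 and 4, and 11 without ZT20 replicate 2, and the counts by role that follow come from all 7 libraries. Among the upstream and parallel kinases, 2 of 14 were higher and 0 lower. The larger was Map3k10, a mixed-lineage kinase of the same family as DLK, at 6.69, 6.90, 8.78 and 5.47 TPM at ZT20 and 3.77, 1.44 and 3.32 TPM at ZT8, without overlap (difference 1.09, SE 0.29, limma adjusted p = 0.0355). With 1 library left out its adjusted p ran from 0.0341 to 0.111, and it passed only without ZT8 replicate 1 or ZT8 replicate 2. It did not pass with median-ratio scaling (0.90, limma adjusted p = 0.0585), quantile normalization (0.73, 0.0984) or the length and GC correction (0.69, 0.0599). The call was also lost with no filter (limma adjusted p = 0.0916), a marker covariate (0.0922) or relative to neuronal markers (0.0765). Replicate number as a block gave a limma adjusted p of 0.0705, and 0.109 with the length and GC correction.

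The group of JNK2, scaffolds and adaptors had 6 of 9 higher and 0 lower, with a median difference of 1.07. Mapk8ip1 encodes JIP1, another scaffold that holds DLK and JNK together, and was at 169, 94.98, 172 and 174 TPM at ZT20 and 73.7, 34.1 and 54.3 TPM at ZT8. The ZT20 samples were tightly grouped but for replicate 2, which was still above all ZT8 samples (difference 1.51, SE 0.30, limma adjusted p = 0.0145). Mapk9, encoding JNK2, was at 84.3, 98.1, 116 and 121 TPM at ZT20 and 60.3, 79.0 and 49.3 TPM at ZT8, also without overlap (difference 0.74, SE 0.19, limma adjusted p = 0.0340). With 1 library left out, Mapk8ip1 failed only without ZT20 replicate 3 (limma adjusted p = 0.0505), while Mapk9 passed only without ZT20 replicate 1 or ZT8 replicate 2, with adjusted p from 0.0124 to 0.102. Mapk9 did not pass with median-ratio scaling (0.49, limma adjusted p = 0.123), quantile normalization (0.69, 0.0560) or the length and GC correction (0.30, 0.332).

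Among ligase partners and proteins that stabilise or modify the kinases and NMNAT2, 5 of 14 were higher and 0 lower, with a median difference of 0.59. Csnk2a1, the catalytic subunit of casein kinase 2, had the largest difference that passed, 1.43 (SE 0.29, limma adjusted p = 0.0158), from 126 ± 52.3 TPM (SD, n = 3) at ZT8 to 330 ± 87.9 TPM (SD, n = 4) at ZT20. It passed without each of the 7 libraries in turn, but not with the length and GC correction (limma adjusted p = 0.0714), with no filter (0.0517), relative to neuronal markers (0.108) or without both ZT20 replicates 3 and 4 (0.141). Fbxo45, the F-box partner of the Mycbp2 ligase, was at 7.80, 10.04, 8.80 and 8.83 TPM at ZT20 and at 3.65, 0.0196 and 4.95 TPM at ZT8. ZT8 replicate 2 was near 0, and the groups did not overlap, yet the difference of 1.69 (SE 0.54, limma adjusted p = 0.0641) did not pass. Without that library the difference was 0.90 and passed (limma adjusted p = 0.0155), and it also passed without ZT8 replicate 3.

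The nuclear targets had 1 of 11 higher and 1 lower, with a median difference of 0.34. Jun, the transcription factor that gives JNK its name, was at 383, 328, 394 and 476 TPM at ZT20 and at 497, 280 and 379 TPM at ZT8. The groups overlapped over most of their range (difference 0.062, SE 0.20, 95% interval −0.40 to 0.52, limma adjusted p = 0.849), and its sign was negative after median-ratio scaling (−0.19). Myc was higher at ZT20, with 26.95 ± 4.23 TPM (SD, n = 4) against 15.4 ± 2.57 TPM (SD, n = 3) and a difference of 0.77 (SE 0.19, limma adjusted p = 0.0275). Bbc3, which encodes the pro-apoptotic protein PUMA, was lower at ZT20, at 4.61, 5.39, 8.57 and 6.30 TPM against 10.5, 19.0 and 11.6 TPM (difference −1.01, SE 0.27, limma adjusted p = 0.0368). With 1 library left out, Myc passed only without ZT20 replicate 2, ZT8 replicate 1 or ZT8 replicate 2 (limma adjusted p from 0.0265 to 0.0873 over the 7 fits), and Bbc3 passed only without ZT8 replicate 1 (0.0401 to 0.0942). Myc did not pass with median-ratio scaling (0.53, limma adjusted p = 0.0574), quantile normalization (0.50, 0.0750) or the marker covariate (0.66, 0.0683). Bbc3 did not with that covariate (−0.81, 0.0998) or array weights (−0.65, 0.0931). Neither passed with no filter (limma adjusted p = 0.0581 for Myc, 0.0872 for Bbc3) or relative to neuronal markers (0.109, 0.0581). The same held with replicate number as a block (0.0573, 0.0915), also with the length and GC correction (0.149, 0.126).

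In the group of NAD, calpain and axon survival genes, 2 of 15 were higher and 0 lower, and its median difference of 0.13 was below that of all genes tested. Bcl2l2, which encodes the survival protein BCL-W, was at 13.8, 13.2, 16.7 and 15.0 TPM at ZT20 and 7.13, 1.24 and 4.91 TPM at ZT8 (difference 1.71, SE 0.40, limma adjusted p = 0.0239). It failed without ZT20 replicate 1, 3 or 4, with adjusted p from 0.00730 to 0.0731 over the 7 fits. Other losses were with the marker covariate (1.30, limma adjusted p = 0.0608), no filter (0.0708) and the replicate block with the length and GC correction (0.0833). Nmnat1, the nuclear form, was at 13.14, 10.34, 13.05 and 13.02 TPM at ZT20 and 15.5, 15.5 and 14.4 TPM at ZT8, so every ZT20 value was below every ZT8 value (difference −0.28, SE 0.16, limma adjusted p = 0.253). It was −0.51 after median-ratio scaling (limma adjusted p = 0.0533) and −0.57 after quantile normalization, where it passed as lower (limma adjusted p = 0.0469). Nmnat3, the mitochondrial form, had a mean under 1 TPM and was not tested, with 0.511 ± 0.268 TPM (SD, n = 4) and 1.44 ± 0.660 TPM (SD, n = 3). Stmn2, a neuronal tubulin-binding protein that is turned over in axons under DLK signalling, was at 1372, 1669, 1196 and 1144 TPM at ZT20 and 1025, 1243 and 1078 TPM at ZT8, with overlap (difference 0.26, SE 0.15, limma adjusted p = 0.254).

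**Figure D4:**
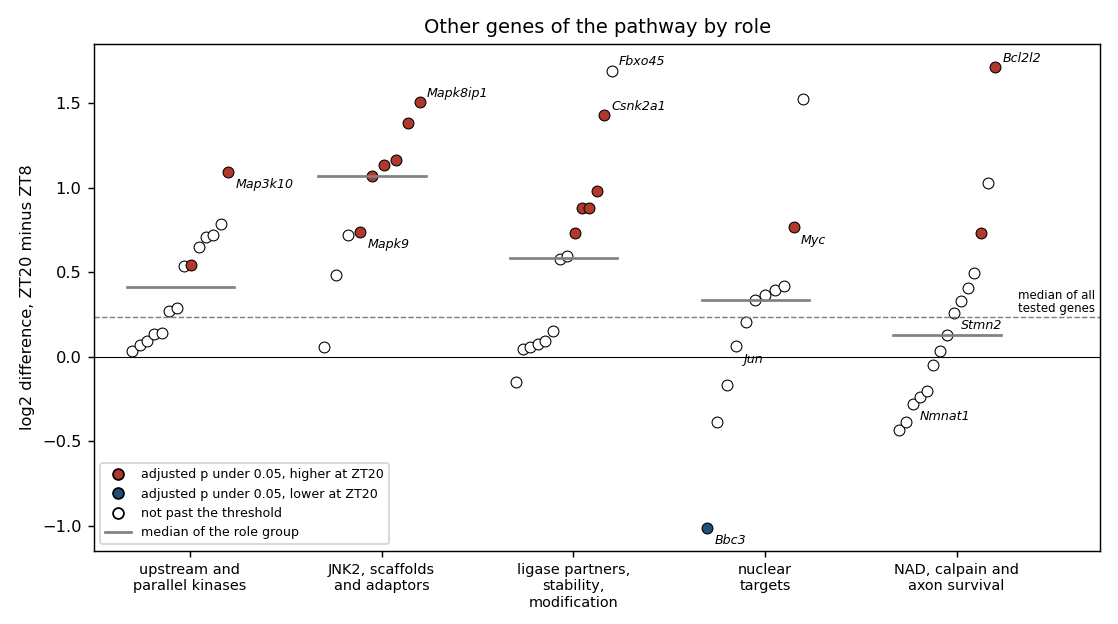
Difference of log2(TPM + 1), ZT20 minus ZT8, for the 63 tested genes of the wider pathway list, 1 circle per gene sorted within its role group, red for higher and blue for lower at ZT20 by limma, white for those that did not pass. Grey bars are group medians (1.07 for JNK2, scaffolds and adaptors, 0.13 for NAD, calpain and axon survival) and the dashed line is the median of all genes tested, 0.23.

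The satellite glia and plasma cell markers move with each of these differences, since the summed TPM of both lists separated the groups. When each member was expressed relative to the mean of the neuronal markers in the same sample, 2 of the 10 passed, Mapk10 and Mycbp2, and the median difference of the 10 was 0.51. With the neuronal minus other marker score as a covariate, 3 passed, Mapk10, Mycbp2 and Sarm1. That score overlapped between the groups, at 4.87 to 5.13 for ZT20 and 4.14 to 5.21 for ZT8. It therefore cannot adjust for the satellite glia separation. The differences of the 7 genes in that fit ran from 0.55 for Nmnat2 to 1.12 for Mycbp2, with 0.87 for Map3k12, 0.94 for Map3k13 and a median of 0.70 over the 10, against 0.79 without the covariate. The part of cell composition, transcript length or library quality in the differences was not tested beyond these values.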

How the data were processed

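RNA sequencing of 7 samples (ZT20, 4; ZT8, 3) was analysed from the TPM table that the authors deposited, with 1 column per sample. The submitters' processing notes name FastQC 0.11.9, Trim Galore 0.6.6, Salmon 1.6.0, DESeq2 1.34.0 and build GRCm39, with no role or order. TPM holds no depth, so neither counting intervals nor floors are given. The pathway genes, the wider list, the tests and the alternatives were chosen with earlier results of these data known.

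Log2(TPM + 1) was fitted over all 7 samples with limma 3.58.1 in R 4.3.3 (lmFit, then eBayes with trend), without covariates, for genes whose mean reached 1 TPM, two-sided, with Benjamini-Hochberg adjustment and a threshold of 0.05. The procedure was tested on simulated data. Ratios of 2 genes were compared by exact permutation. Named were all 10 genes and, of the wider list, the called gene with the largest rise and fall in each role group plus Mapk9, Fbxo45, Nmnat1, Nmnat3, Stmn2 and Jun. A symbol row at 0 in all samples was dropped for Ddit3. Length, GC content and overlaps came from GENCODE M21, joined on gene identifiers for 51484 of 54309 genes and not by coordinates. Promoter windows came from RefSeq on GRCm38.p6.

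Alternatives were median-ratio scaling, a pseudocount of 0.1, a filter at 5 TPM or none, removal of immunoglobulin or mitochondrially encoded genes, quantile normalization, a loess correction for length and GC content (span 0.3), a marker covariate, the replicate block, no trend, array weights and leaving out each library. Added after seeing the data were leaving out ZT20 replicates 3 and 4 or 2, 3 and 4, values relative to neuronal markers, and ratios with no pseudocount.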

Additional observations from a re-analysis of the deposited data

Results flagged for a closer look

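In the ZT20 group, single samples lying far from the others were looked for among 77 values (the 10 pathway genes, their 4 ratios and the 63 tested genes of the wider list). The 3 ZT8 samples are too few for this check. None of the 10 genes and none of the 4 ratios had such a sample, and 6 genes of the wider list did, where chance gives about 1 in 20, or 3.85 of 77. In 5 of the 6 the sample was ZT20 replicate 2. Mapk8ip1, the JIP1 scaffold, was at 94.98 TPM there against 169 to 174 TPM in the other ZT20 samples. Nmnat1 was at 10.3 TPM against 13.02 to 13.14 TPM. Sox11, a transcription factor of growing neurons, was at 117 TPM against 37.2 to 46.2 TPM. Map4k3 was at 6.28 TPM against 3.71 to 4.07 TPM, and the ubiquitin ligase gene Siah2 at 2.40 TPM against 1.82 to 1.89 TPM. In ZT20 replicate 1, the chaperone gene Hsp90ab1 was at 1936 TPM against 2056 to 2074 TPM. Map4k3, Sox11, Siah2 and Hsp90ab1 are named here after their values were seen.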

How the results depend on the processing

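Counts past the threshold are given for the 10 genes, the wider list and all genes, 7, 17 and 2433 on deposited TPM. They were 1, 7 and 1178 with no filter, 1, 8 and 1306 with the length and GC correction, 2, 6 and 914 relative to neuronal markers, and 0, 0 and 0 by limma without ZT20 replicates 3 and 4 (unadjusted p under 0.05: 4, 18 and 2378) or 2, 3 and 4 (2, 10 and 1155; the lone ZT20 sample is assumed to vary like ZT8). Of the 10 genes 3 passed with median-ratio scaling, quantile normalization or the marker covariate, and array weights called 3899 genes in all. Median-ratio scaling called 1088 genes higher and 1254 lower, against 1899 and 534. With 1 library left out the counts ran from 1 to 6, 3 to 20 and 723 to 3047. Correlations of same-numbered deviations were −0.014, 0.15 and 0.083, which cannot decide whether replicate numbers pair the samples. The replicate block gave 4, 9 and 1174, and with the length and GC correction 0 (1 at an unadjusted p under 0.05), 3 and 457. Mapk8 turned negative with median-ratio scaling (−0.21), quantile normalization (−0.20), the length and GC correction (−0.45, also with the block), array weights (−0.018), relative to neuronal markers (−0.25), without ZT8 replicate 2 (−0.026) or 3 (−0.0054), and without ZT20 replicates 3 and 4 (−0.0069) or 2, 3 and 4 (−0.048). Map2k7 turned with the length and GC correction (−0.079, with the block −0.19) and without ZT20 replicates 3 and 4 (−0.064), and Map2k4 without ZT8 replicate 3 (0.24). Jun turned with median-ratio scaling (−0.19), the length and GC correction (−0.26, with the block −0.32), the marker covariate (−0.080), the block (−0.031), array weights (−0.084), without ZT20 replicate 4 (−0.031), ZT8 replicate 2 (−0.15) or ZT20 replicates 3 and 4 (−0.082), and relative to neuronal markers (−0.22), as did Stmn2 (−0.020). The ratio of Map3k12 to Map3k13 turned with the length and GC correction (0.12) and without ZT8 replicate 1 (0.10), and that of Nmnat2 to Sarm1 without ZT20 replicate 2 (0.076) or ZT8 replicate 3 (0.089). With 1 library left out these ran from −0.67 to 0.24 (Map2k4), −0.026 to 0.13 (Mapk8), −0.15 to 0.26 (Jun), −0.17 to 0.10 (Map3k12 to Map3k13) and −0.42 to 0.089 (Nmnat2 to Sarm1). For all of these the cause was not tested.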
